A study of Mus musculus with 18 samples.

Results

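The nuclear genes of oxidative phosphorylation were taken from the GENCODE M21 annotation by symbol: protein-coding genes beginning with Nduf, Uqcr or Atp5, those beginning with Cox and a digit from 4 to 8, and the 4 genes Sdha to Sdhd. The rule gave 94 genes of 53458 in the files, and 88 of them passed the filter on low counts, among 21565 genes that were tested. They were measured by RNA sequencing of total RNA in 3 blood cell populations sorted from the bone marrow of C57BL/6 mice, in Ptbp1 KO animals (-/-) and in Ptbp1 fl/fl animals (WT), with 3 libraries for each of the 6 groups. The libraries are called biological replicates in the labels, while the sources used here state neither a Cre driver nor the age and sex of the mice. Hematopoietic stem cells (HSC) were gated as lineage-negative cells with Sca-1, c-kit and CD150 and without CD48. PreMegE cells, progenitors of megakaryocytes and erythrocytes, lacked Sca-1, CD41, FcgRII/III and CD105 and carried c-kit and CD150. PreCFU-E cells, the next step towards the erythrocyte, had the preMegE gate except that they carried CD105. PTBP1 is an RNA-binding protein that regulates splicing, and the contrasts ask whether its loss changes these genes in each population and whether they change between populations.

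Oxidative phosphorylation runs in the inner mitochondrial membrane. Complexes I and II take electrons from NADH and succinate, complex III passes them to cytochrome c, complex IV hands them to oxygen, and complex V, the ATP synthase, uses the resulting proton gradient to make ATP. Most subunits are encoded in the nucleus and imported, while a small core of complexes I, III, IV and V is encoded by mitochondrial DNA, so that both genomes have to supply each of those complexes. Stem cells of the bone marrow are known for relying on glycolysis more than on respiration, and erythroid precursors for a large mitochondrial demand, because the first and last steps of heme synthesis take place in the mitochondrion.

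The set holds 36 subunits of complex I and 8 complex I assembly factors (Ndufaf genes), 4 subunits of complex II, 8 of complex III, 20 of complex IV and 18 of complex V. Ndufa4 and Ndufa4l2 are counted with complex IV, to which the NDUFA4 protein belongs. All genes of complexes I, II and III and all assembly factors passed the filter, as did 15 of the complex IV genes and 17 of the complex V genes. Cox6a2 and Cox8c, the muscle and testis forms of their subunits, and a readthrough transcript annotated as a second Atp5o had 0 reads in every library. Cox7b2 had at most 4 reads in a library, Cox8b at most 13 and Ndufa4l2 at most 4, and these 3 genes did not pass the filter.

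Library totals ran from 15956408 to 29226287 estimated reads, and mitochondrial ribosomal RNA took 12.7% to 33.6% of them. The spread between replicates was widest in HSC, with a common biological coefficient of variation of 0.474, against 0.238 in preMegE and 0.127 in preCFU-E. Ptbp1 itself averaged 98.1 ± 8.83 CPM in KO HSC and 208 ± 12.5 CPM in WT HSC, 203 ± 25.4 CPM in KO and 693 ± 95.8 CPM in WT preMegE, and 306 ± 10.5 CPM in KO and 1244 ± 117 CPM in WT preCFU-E (SD, n = 3 each). Summed erythroid markers, 17 of 17 detected, ran from 10207 to 12151 CPM in KO and 9563 to 11788 CPM in WT preCFU-E, and from 344 to 438 CPM in KO and 500.1 to 584 CPM in WT HSC. Summed markers of HSC were at most 135 CPM in preCFU-E, where Procr was at 0, and ran from 1076 to 1391 CPM in KO and 1426 to 1492 CPM in WT HSC. All HSC libraries carried Xist at 6434 to 8617 CPM and all others at most 1.09 CPM, so the sex of the mice and the step out of HSC cannot be told apart. 3 of the genes lie on the X chromosome (Ndufa1, Ndufb11 and Cox7b).

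From HSC to preMegE and again from preMegE to preCFU-E, most nuclear respiratory genes rose in cells of both genotypes. In the first step, 69 of 88 genes rose in KO preMegE against KO HSC, where 25.4% of all tested genes did (edgeR, adjusted p below 0.05 over all genes). In WT preMegE against WT HSC 67 rose, against 25.5% of all genes. In the second step, 73 of 88 rose in KO preCFU-E against KO preMegE (18.4% of all genes) and 71 in WT preCFU-E against WT preMegE (15.6% of all genes). Few fell: Cox4i2 and Ndufb2 in the first step and Cox7a2l in the second, all in KO cells, where 27.3% and 17.6% of all genes fell, and none in WT cells, where 28.2% and 11.2% did. The 2 steps share the preMegE libraries, so they are given side by side and not as independent results. In bulk samples fewer cells of a type and less RNA per cell cannot be told apart.

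The median log2 change of the 88 genes was 1.08 in KO and 1.23 in WT cells in the first step, beside -0.36 and -0.43 over all genes. From preMegE to preCFU-E it was 1.15 in KO and 0.99 in WT cells, beside -0.32 and -0.18 over all genes. Scaling to nuclear protein-coding genes alone moved these medians to 0.82 in KO and 0.98 in WT cells for the first step and to 0.93 in KO and 0.81 in WT cells for the second, and the median of all genes to -0.07, -0.08, -0.15 and -0.11 in the same order. Of the calls in the first step, 61 genes rose in both genotypes, which is 88.4% of the KO calls and 91.0% of the WT calls. In the second step 70 genes rose in both, 95.9% of the KO calls and 98.6% of the WT calls. How often calls over all genes were shared by both genotypes was not computed. Between preCFU-E and HSC, the mean CPM of a gene was a median of 4.70 times higher in KO and 4.45 times higher in WT cells. For 84 genes in KO and 85 in WT cells all 3 preCFU-E libraries lay above all 3 HSC libraries, as they did for 31.5% of all genes in KO and 31.6% in WT cells.

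**Figure D1:**
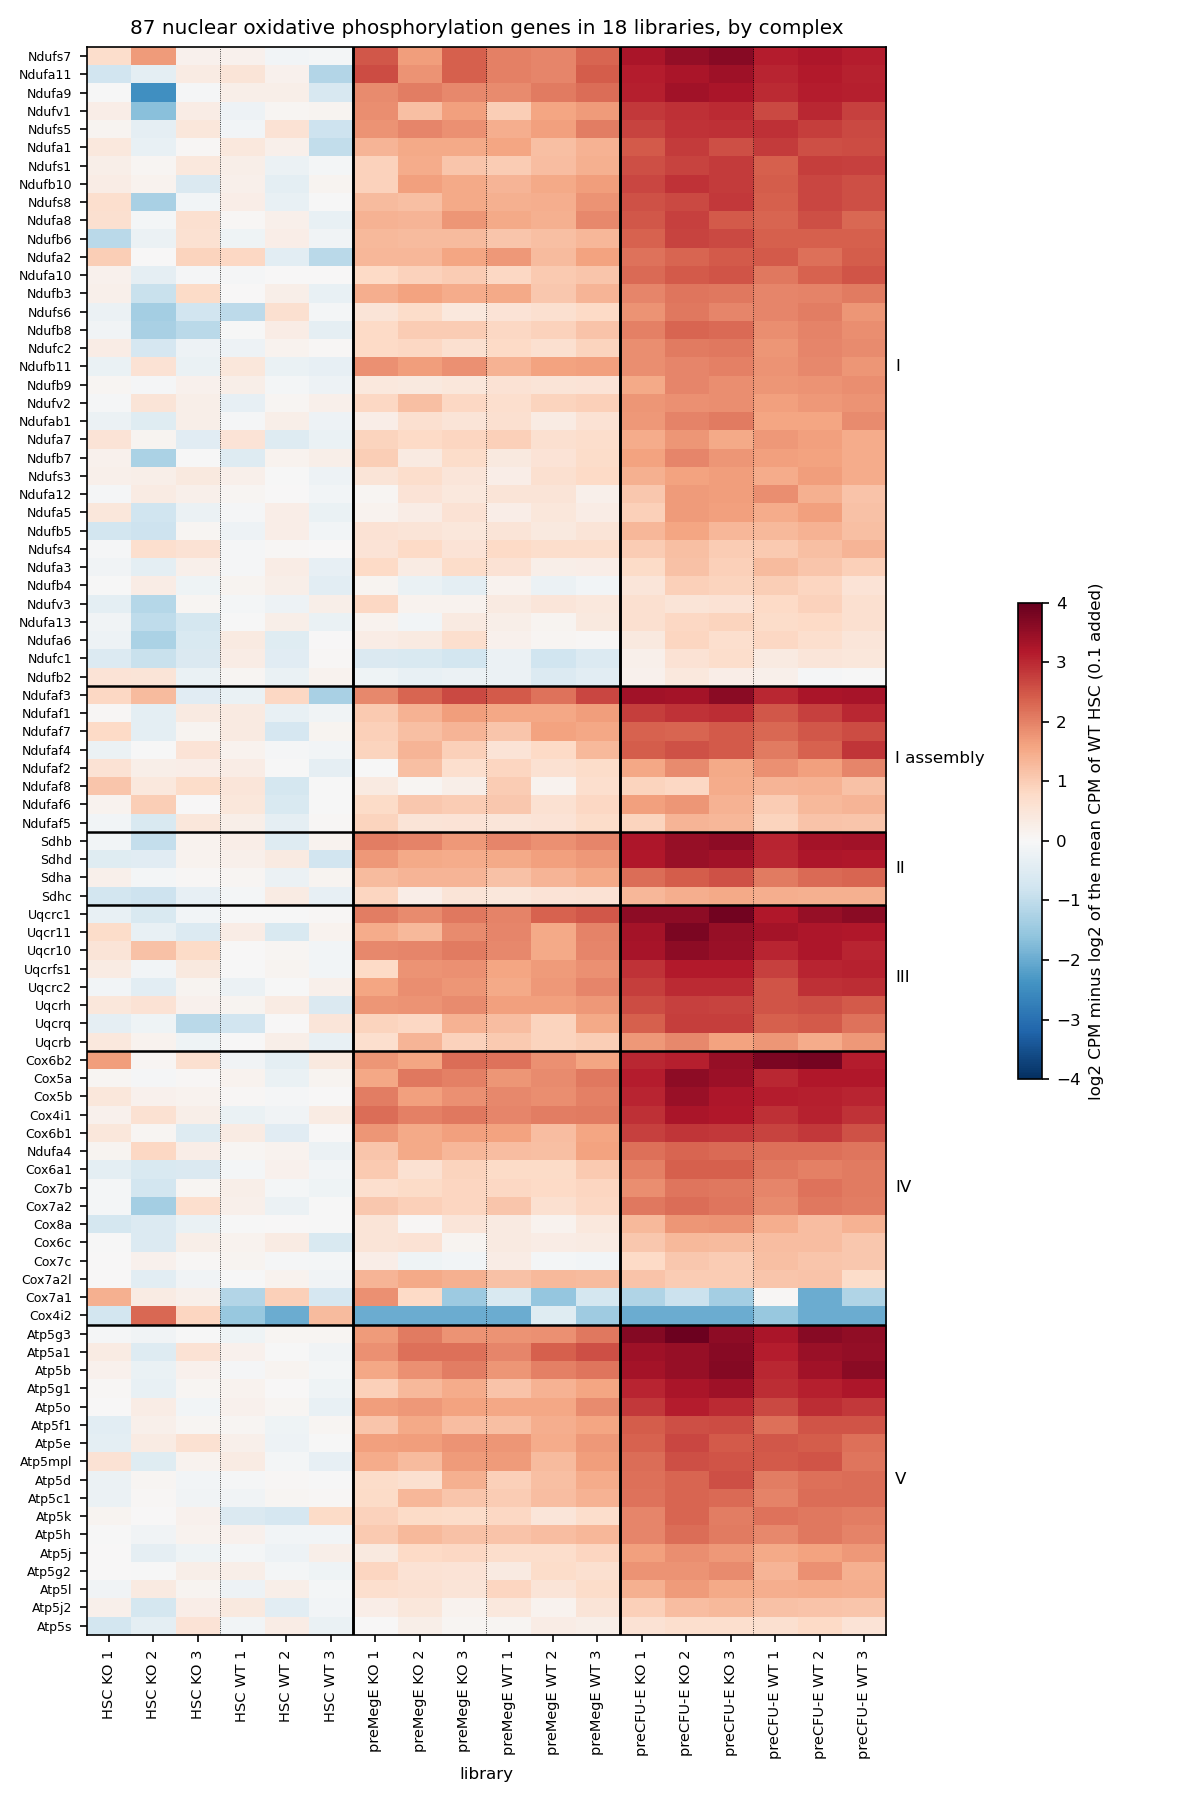
Log2 CPM of 87 nuclear oxidative phosphorylation genes (rows, grouped by complex) in 18 libraries (columns: HSC, preMegE and preCFU-E, KO before WT), each less the log2 of its mean in WT HSC libraries. Red marks higher and blue lower values; colour deepens from HSC to preMegE to preCFU-E in most rows of every complex, and Cox4i2, Cox7a1 and Ndufb2 are rows where it does not.

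In calls on CPM, the rise was complete in complexes II and III and uneven in the others. Per length, Sdhc of complex II fell in the first step. All 4 genes of complex II and all 8 of complex III rose in both steps in both genotypes. Of 36 complex I subunits, 27 in KO and 25 in WT cells rose in the first step and 28 in KO and 27 in WT cells in the second. Complex IV had 11 of 15 risers in KO and 10 of 15 in WT cells, then 12 in each genotype. Complex V had 14 of 17 in both genotypes, then 16 in both. Of 8 complex I assembly factors, 5 in KO and 6 in WT cells rose in the first step, and 5 in KO and 4 in WT cells in the second. In all, 56 of 88 genes rose in every one of the 4 contrasts, and 5 rose in none: Atp5s, Cox4i2, Cox7a1, Ndufaf8 and Ndufb2. The share of all tested genes that rose in all 4 contrasts was not computed.

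**Figure D2:**
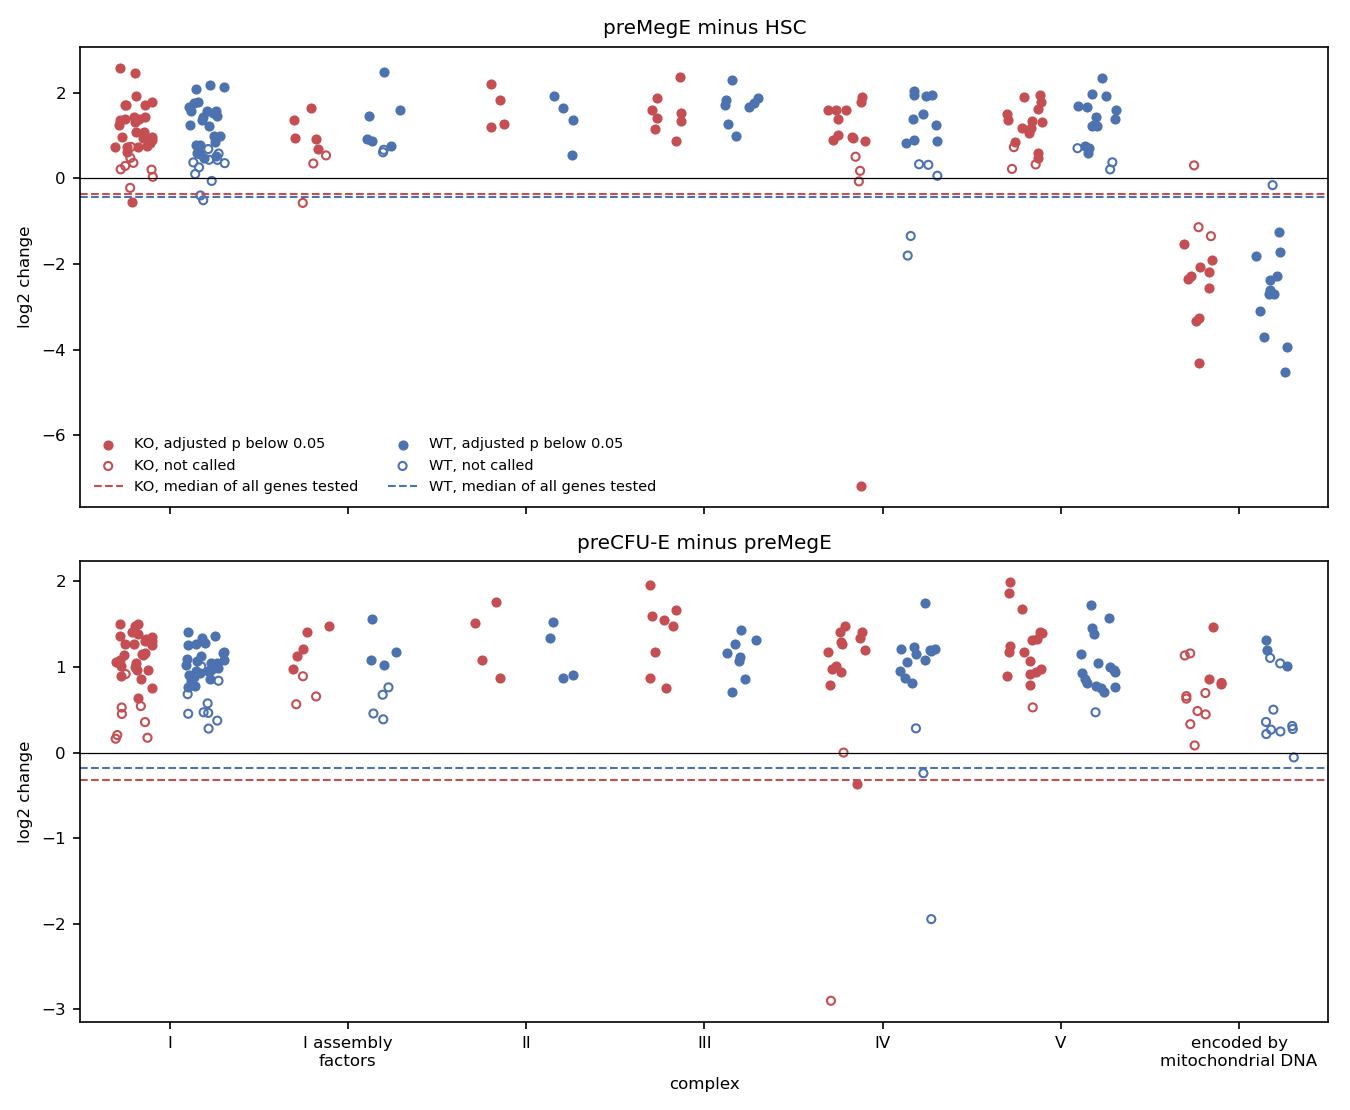
Log2 change of each gene in preMegE minus HSC (upper panel) and preCFU-E minus preMegE (lower panel), by complex and, at the right, for the 13 mRNAs encoded by mitochondrial DNA; KO in red and WT in blue, filled where the adjusted p is below 0.05, dashed lines at the median of all tested genes. All points of complexes II and III are filled and above 0, and most points of the mitochondrial DNA column are below 0 in the upper panel.

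Complex I, the NADH dehydrogenase, had risers among both its core and its accessory subunits. Ndufs1, an iron-sulfur subunit of the arm that accepts electrons from NADH, had 40.2, 36.1 and 46.0 CPM in HSC, 64.6, 97.2 and 74.4 CPM in preMegE and 204, 226 and 240.1 CPM in preCFU-E of KO mice. WT mice had 40.7, 29.5 and 32.9 CPM in HSC, 70.2, 81.1 and 92.0 CPM in preMegE and 182, 232 and 229.6 CPM in preCFU-E. In CPM the 3 populations did not overlap in either genotype. On that scale Ndufs1 rose more in the second step, by a log2 of 1.504 (SE 0.17) in KO and 1.403 (SE 0.17) in WT cells. The first step was 0.95 and 1.24, and the difference between steps was not tested. Per length (TPM rescaled to nuclear protein-coding genes), Ndufs1 in HSC and preMegE overlapped. KO cells had 103, 82.5 and 190 in HSC and 103, 105 and 77.1 in preMegE. WT cells had 95.2, 140 and 93.5 in HSC and 92.8, 88.6 and 101 in preMegE.

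The accessory subunits of complex I held both ends of the range. Ndufa11, a membrane-arm subunit on chr17:56717767-56722141 in GRCm38, had 1.31, 1.71 and 2.87 CPM in HSC, 14.4, 8.17 and 12.3 CPM in preMegE and 20.8, 22.5 and 24.99 CPM in preCFU-E of KO mice. In WT mice the values were 3.27, 2.6 and 0.957 CPM in HSC, 9.41, 9.15 and 12.8 CPM in preMegE and 19.5, 21.2 and 20.2 CPM in preCFU-E. Every preMegE library lay above every HSC library, and the first step was the largest of any complex I gene in both genotypes, at a log2 of 2.58 (SE 0.36) in KO and 2.18 (SE 0.35) in WT cells (edgeR adjusted p = 5.93e-06 and 3.38e-05). Ndufb2, at the other end, had 18.4, 18.2 and 10.5 CPM in HSC, 11.1, 10.1 and 10.7 CPM in preMegE and 14.2, 16.8 and 15.004 CPM in preCFU-E of KO mice. Libraries of WT mice gave 13.2, 10.5 and 14.002 CPM in HSC, 10.7, 8.49 and 9.37 CPM in preMegE and 14.4, 12.2 and 12.4 CPM in preCFU-E. It fell in KO preMegE against KO HSC by a log2 of 0.56 (SE 0.23, edgeR adjusted p = 0.0425), but the KO groups overlap, since KO 3 of HSC had 10.5 CPM. With length-scaled counts the same contrast was 0.65 and called in the other direction, and the call was lost without any 1 of 5 of its 6 libraries, with adjusted p from 0.0716 to 0.167. Exons of Ndufb2 overlap Braf on the other strand, and without strand information reads of that overlap cannot be told apart. Ndufb4 and Ndufc1 did not rise in the first step in either genotype and rose in the second, Ndufb4 by 0.96 in KO and 0.88 in WT cells.

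The assembly factors build complex I without staying in it. Ndufaf1, a chaperone of the early membrane intermediate, and Ndufaf4 and Ndufaf7, which act on the peripheral arm, rose in all 4 contrasts. Ndufaf4 had 11.8, 13.8 and 20.5 CPM in HSC, 25.7, 35.6 and 26.8 CPM in preMegE and 74.6, 81.4 and 76.7 CPM in preCFU-E of KO mice. In WT mice it had 15.5, 13.4 and 12.8 CPM in HSC, 20.2, 24.2 and 34.3 CPM in preMegE and 58.5, 71.9 and 103 CPM in preCFU-E. The second step of Ndufaf4 was 1.403 (SE 0.23) in KO and 1.56 (SE 0.23) in WT cells (edgeR adjusted p = 6.79e-05 and 2.67e-05). Ndufaf3 had the largest first step of all 88 genes in WT cells, 2.48 (SE 0.41), from low HSC values of 2.13, 4.68 and 1.01 CPM, and 1.63 (SE 0.40) in KO cells, where HSC had 4.66, 6.44 and 1.86 CPM. Without the HSC library WT 2 the WT value was 3.20. Ndufaf5, Ndufaf6 and Ndufaf8 passed the test in at most 1 of the 4 contrasts.

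Complex II, succinate dehydrogenase, is the one respiratory complex made wholly from nuclear genes and also an enzyme of the tricarboxylic acid cycle. Sdhb, its iron-sulfur subunit (ENSMUSG00000009863, chr4:140961203-140979193), had 6.61, 3.64 and 8.0 CPM in HSC, 30.3, 28.7 and 24.4 CPM in preMegE and 68.8, 80.9 and 87.7 CPM in preCFU-E of KO mice. The WT values were 8.64, 4.97 and 8.01 CPM in HSC, 28.0, 25.9 and 28.4 CPM in preMegE and 60.4, 73.0 and 74.8 CPM in preCFU-E. No library of a later population fell into the range of an earlier one, and the ratio of preCFU-E to HSC means was 13.01 in KO and 9.63 in WT cells. Sdha, the flavoprotein that oxidises succinate, had 134, 110.3 and 119.7 CPM in HSC, 283, 297 and 297 CPM in preMegE and 546, 629 and 676 CPM in preCFU-E of KO mice. WT mice had 124, 99.98 and 126 CPM in HSC, 264, 299 and 336 CPM in preMegE and 489.7, 567 and 587 CPM in preCFU-E. In CPM its steps were 1.27 and 1.08 in KO and 1.36 and 0.87 in WT cells on the log2 scale. Per length, Sdha in HSC and preMegE overlapped. KO cells had 289, 201 and 259 in HSC and 297, 281 and 277 in preMegE. WT cells had 256, 189 and 337 in HSC and 279, 282 and 298 in preMegE. Sdhd, a membrane anchor, rose by 1.82 and 1.76 in KO and by 1.63 and 1.53 in WT cells.

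Sdhc, the other membrane anchor, had the smallest first step of the complex. It rose by 1.19 (SE 0.18) in KO and 0.53 (SE 0.17) in WT cells (edgeR adjusted p = 1.27e-05 and 0.0144). In WT cells this value was 0.29 with nuclear protein-coding scaling and -0.14 with length-scaled counts, both without a call, and 0.43 without the HSC library WT 3 (adjusted p = 0.058). In KO cells it was 0.34 with length-scaled counts, also without a call. Per length, Sdhc was lower in preMegE than in HSC without overlap in both genotypes. KO cells had 87.2, 113 and 128 in HSC and 79.4, 64.3 and 77.3 in preMegE. WT cells had 130, 199 and 138 in HSC and 76.9, 80.5 and 74.0 in preMegE. The WT preCFU-E libraries, with 125, 97.4 and 107, still lay below all WT HSC libraries, while in KO cells these populations overlapped.

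Complex III, ubiquinol-cytochrome c reductase, had the highest median rise of the multi-subunit complexes that draw on both genomes, 1.46 in KO and 1.73 in WT cells in the first step and 1.51 and 1.14 in the second. Uqcrc1, a core protein of the matrix side (ENSMUSG00000025651, chr9:108936633-108949623), had 13.6, 10.9 and 15.7 CPM in HSC, 70.3, 62.4 and 72.4 CPM in preMegE and 200.1, 204 and 246 CPM in preCFU-E of KO mice. Libraries of WT mice gave 16.6, 16.6 and 17.3 CPM in HSC, 67.0, 85.9 and 93.7 CPM in preMegE and 155, 191 and 206 CPM in preCFU-E. The populations were apart in both genotypes, and in KO cells the preCFU-E mean was 16.2 times the HSC mean, the largest ratio among the 88 genes, against 10.9 times in WT cells. Its first step was 2.35 (SE 0.16) in KO and 2.29 (SE 0.16) in WT cells (edgeR adjusted p = 5.77e-10 and 7.35e-10). Uqcr11, a small subunit, had 5.3, 2.54 and 2.12 CPM in HSC, 8.98, 7.91 and 11.9 CPM in preMegE and 32.7, 43.8 and 36.1 CPM in preCFU-E of KO mice. WT mice had 3.92, 2.03 and 3.48 CPM in HSC, 12.6, 9.22 and 12.7 CPM in preMegE and 32.6, 30.7 and 30.1 CPM in preCFU-E. Uqcrfs1, the Rieske iron-sulfur protein, rose by 1.33 and 1.55 in KO and by 1.71 and 1.27 in WT cells. The smallest rise of the complex was that of Uqcrb, with 0.87 and 0.75 in KO and 0.98 and 0.71 in WT cells.

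Complex IV, cytochrome c oxidase, has several subunits with paralogs that other tissues prefer. Cox4i1, the common form of subunit 4 (ENSMUSG00000031818), had 22.0, 29.99 and 23.0 CPM in HSC, 92.7, 79.4 and 85.3 CPM in preMegE and 149, 189 and 181 CPM in preCFU-E of KO mice. In WT mice it had 16.3, 17.97 and 24.9 CPM in HSC, 76.8, 81.2 and 83.4 CPM in preMegE and 151, 168 and 146 CPM in preCFU-E. Cox4i1 rose by 1.78 (SE 0.16) in KO and 2.03 (SE 0.16) in WT cells in the first step (edgeR adjusted p = 2.35e-08 and 4e-09) and by 1.01 and 0.95 in the second. Its lung paralog Cox4i2, known as the hypoxia-linked form, had 4, 42 and 14 reads in KO HSC and 1, 0 and 17 reads in WT HSC. In preMegE it had 0 reads in all KO libraries and 0, 5 and 1 reads in WT libraries, and in preCFU-E 0 in all KO and 1, 0 and 0 in WT libraries. Against a floor of 3 reads for the group, Cox4i2 was at least 15.3-fold lower in KO preMegE than in KO HSC, a value that rests mostly on the HSC library KO 2. Cox5a and Cox5b, a matrix and a zinc-binding subunit, rose in all 4 contrasts, Cox5a by 1.90 and 1.48 in KO and by 1.94 and 1.21 in WT cells.

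Cox7a2l, a relative of the subunit 7a family that acts in joining complexes III and IV into supercomplexes, was highest in preMegE. It had 37.7, 27.8 and 34.0 CPM in HSC, 95.6, 106 and 100.2 CPM in preMegE and 82.3, 76.1 and 75.8 CPM in preCFU-E of KO mice. WT mice had 37.1, 40.7 and 34.0 CPM in HSC, 84.0, 92.4 and 89.8 CPM in preMegE and 80.1, 82.3 and 62.7 CPM in preCFU-E. All preMegE libraries lay above all preCFU-E libraries within each genotype. The fall from preMegE to preCFU-E was 0.37 on the log2 scale in KO cells (SE 0.14, edgeR adjusted p = 0.046), and the change in WT cells was -0.24 (SE 0.14, adjusted p = 0.229). The KO call was lost without any 1 of 5 of its 6 libraries, with adjusted p from 0.0649 to 0.117. Cox7a2, the common form of subunit 7a, rose in both steps, by 1.01 and 1.196 in KO and by 0.88 and 1.15 in WT cells, and its first WT step was not called with nuclear protein-coding scaling (0.64) or length-scaled counts (0.50), nor without the HSC library WT 2 (0.79) or the preMegE library WT 1 (0.795). The muscle form Cox7a1 had at most 27 reads in a library.

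Cox6b2, described as a testis form of subunit 6b, was measured beside the common form Cox6b1. It had 10.4, 3.38 and 5.04 CPM in HSC, 11.1, 9.61 and 15.4 CPM in preMegE and 26.6, 28.2 and 36.9 CPM in preCFU-E of KO mice. The WT values were 2.89, 2.41 and 4.23 CPM in HSC, 14.6, 11.5 and 9.66 CPM in preMegE and 44.6, 46.4 and 28.5 CPM in preCFU-E. The preCFU-E libraries were above all others in both genotypes, and the second step was 1.34 (SE 0.33) in KO and 1.74 (SE 0.33) in WT cells (edgeR adjusted p = 0.00283 and 0.000336). The first step of Cox6b2 was 0.94 (SE 0.33) in KO and 1.91 (SE 0.34) in WT cells. In KO cells the libraries overlapped, and the call was lost with nuclear protein-coding scaling (adjusted p = 0.0906) and without the HSC library KO 2 (0.0869) or KO 3 (0.0700) or the preMegE library KO 3 (0.112), while the value without the HSC library KO 1 was 1.54. Cox6b1 rose in both steps, by 1.58 and 1.17 in KO and by 1.49 and 1.21 in WT cells. Cox7c was not called in the first step, with 53.8, 39.4 and 41.0 CPM in KO preMegE and 45.4, 49.6 and 46.3 CPM in KO HSC, and rose in the second, by 0.97 in KO and 1.08 in WT cells.

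Complex V, the ATP synthase, held the most abundant of the genes. Atp5b, the catalytic beta subunit (ENSMUSG00000025393, chr10:128083273-128090391), had 780.0, 574 and 773 CPM in HSC, 2019, 2438 and 2859 CPM in preMegE and 6930.1, 7676 and 8770.0 CPM in preCFU-E of KO mice. Libraries of WT mice gave 668, 739.6 and 657 CPM in HSC, 2318, 2762 and 3043 CPM in preMegE and 5604, 7137 and 8396 CPM in preCFU-E. It rose by 1.78 (SE 0.16) and 1.68 (SE 0.16) in KO and by 1.98 (SE 0.17) and 1.38 (SE 0.16) in WT cells. Atp5a1, the alpha subunit, rose by 1.88 and 1.41 in KO and by 2.33 and 1.05 in WT cells. Atp5s, also known as factor B, was the complex V gene that rose in no contrast, with changes between 0.21 and 0.53.

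Subunit c, which forms the rotor ring, is encoded by the paralogs Atp5g1, Atp5g2 and Atp5g3, whose mature proteins are the same. Atp5g1 had 35.2, 27.6 and 36.1 CPM in HSC, 66.0, 83.7 and 94.8 CPM in preMegE and 282, 328 and 359 CPM in preCFU-E of KO mice, and WT mice had 37.7, 34.6 and 30.2 CPM in HSC, 75.3, 90.4 and 101 CPM in preMegE and 266, 293 and 320.3 CPM in preCFU-E. Atp5g3 had 14.2, 13.4 and 14.5 CPM in HSC, 47.7, 63.0 and 51.5 CPM in preMegE and 188, 226 and 178 CPM in preCFU-E of KO mice, and WT mice had 13.02, 15.6 and 15.5 CPM in HSC, 51.3, 52.3 and 64.2 CPM in preMegE and 143, 186 and 171 CPM in preCFU-E. Atp5g2 had 26.7, 25.7 and 30.8 CPM in HSC, 47.8, 38.8 and 37.9 CPM in preMegE and 91.2, 90.7 and 98.0 CPM in preCFU-E of KO mice, and WT mice had 30.5, 24.9 and 23.1 CPM in HSC, 33.5, 43.6 and 41.0 CPM in preMegE and 66.8, 92.3 and 71.0 CPM in preCFU-E. All 3 paralogs rose in all 4 contrasts. From preMegE to preCFU-E the log2 change was 1.99 (SE 0.16) in KO and 1.72 (SE 0.16) in WT cells for Atp5g1, 1.87 and 1.58 for Atp5g3, and 1.17 and 0.96 for Atp5g2. The first step of Atp5g2 was 0.58 in KO and 0.59 in WT cells, and with nuclear protein-coding scaling 0.32 and 0.34 without a call. With the reads of pseudogene copies added, an alternative chosen after seeing the data, it was 1.61 in KO and 1.55 in WT cells, beside 1.57 and 1.73 for Atp5g1, so the size of this step depends on how reads are divided. Differences between the paralogs were not tested.

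Per length, the order of the 3 paralogs changed between populations. As a level per length (TPM rescaled to the same total over nuclear protein-coding genes in every library), Atp5g1, Atp5g2 and Atp5g3 had 290.4 ± 37.9, 317 ± 40.3 and 149 ± 11.6 in KO HSC, and 291 ± 56.4, 290.0 ± 44.7 and 153 ± 12.7 in WT HSC (SD, n = 3). Atp5g1 and Atp5g2 overlapped there, and Atp5g3 was below both in every HSC library. In preCFU-E the same genes had 1241 ± 92.4, 488 ± 27.7 and 763 ± 95.9 in KO cells, and 1188 ± 98.3, 376 ± 61.1 and 661 ± 54.3 in WT cells. Atp5g1 was highest, Atp5g3 next and Atp5g2 lowest in every preCFU-E library. Reads of processed pseudogene copies amounted to a median of 39.1% of the Atp5g2 reads and 20.7% of the Atp5g1 reads, so the division between a gene and its copies is uncertain for these paralogs.

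**Figure D3:**
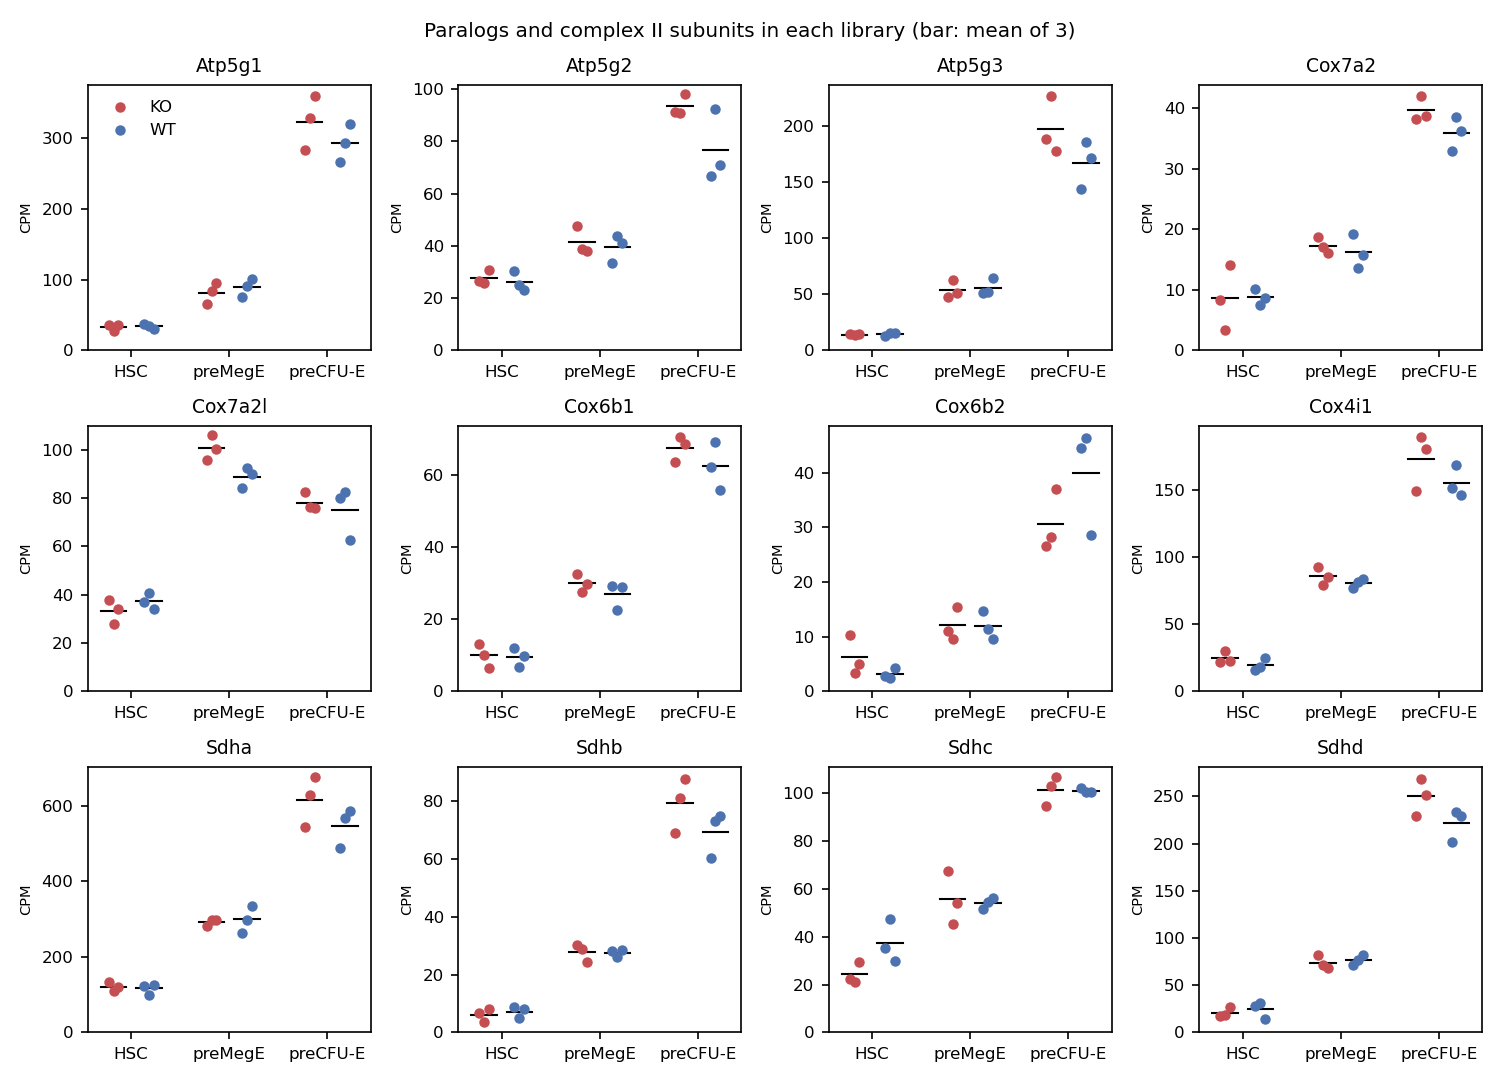
CPM in each library (points) with the mean of 3 (bar) for the subunit c paralogs, the 7a, 6b and 4 subunits of complex IV and the 4 complex II genes, KO in red and WT in blue, in HSC, preMegE and preCFU-E; each axis starts at 0. 11 of the 12 genes are highest in preCFU-E, and Cox7a2l is highest in preMegE.

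The promoters of the set, whether or not a gene rose, were searched for letters that transcription factors are known to bind. NRF1 is a known activator of nuclear respiratory genes, and its motif, searched as GCGC, any base and TGCGC on both strands in the 250 bases before and 50 after the start, was in 19 (25%) of 76 promoters of the set that could be matched, and in 10.3% of 11462 protein-coding genes past the filter. The YY1 motif AANATGGCG was in 14.5% of the set and 5.27% of those genes, and the ESRRA motif TCAAGGTCA in 2.63% (2 genes) and 0.314%. The ETS motif CCGGAAGT, bound by GABPA, was in 6.58% and 8.12%, and the GATA motif AGATAA in 7.89% and 9.20%. The motifs were searched separately, and matches may overlap. These sequences, from RefSeq on GRCm38.p6, belong to genes that rose in all 4 contrasts: Sdha (3 NRF1 matches, minus strand of chr13:74350241-74350358), Cox6a1 (2 matches, minus strand of chr5:115349046-115349140), Ndufa11 (plus strand of chr17:56717682-56717731), Sdhd (minus strand of chr9:50603899-50603948), Atp5g2 (minus strand of chr15:102671060-102671109) and Atp5g3 (1 ESRRA match, minus strand of chr2:73911350-73911398). Each runs 5′ to 3′ with respect to its gene and lies upstream of its start, with the motif in capitals. The matches of Sdha, Sdhd and Atp5g3 and the second match of Cox6a1 are the reverse complement of the motif, which lies on the other strand, and the first match of Cox6a1 and those of Ndufa11 and Atp5g2 read the same on both strands.
Sdha: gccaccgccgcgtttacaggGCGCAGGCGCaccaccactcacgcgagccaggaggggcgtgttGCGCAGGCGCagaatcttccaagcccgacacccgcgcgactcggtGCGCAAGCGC
Cox6a1: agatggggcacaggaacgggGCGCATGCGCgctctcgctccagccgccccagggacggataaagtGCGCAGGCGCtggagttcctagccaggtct
Ndufa11: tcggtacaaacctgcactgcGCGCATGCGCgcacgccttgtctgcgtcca
Sdhd: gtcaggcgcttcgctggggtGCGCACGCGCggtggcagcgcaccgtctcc
Atp5g2: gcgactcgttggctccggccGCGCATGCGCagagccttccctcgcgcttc
Atp5g3: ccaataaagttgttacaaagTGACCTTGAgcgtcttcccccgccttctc
A match is only a run of letters, and binding was not measured.

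Of the factors named for these motifs, Nrf1 passed the test in the first step of WT cells alone (log2 0.21 in KO and 0.60 in WT cells, a difference that was not called). Yy1 rose in both KO steps (0.78 and 0.64) and in the first WT step (0.82). Gabpa rose in both KO steps (0.46 and 0.46) and was not called in WT cells (0.39 and 0.40). Esrra, at a mean of at most 3.43 CPM in a group, passed in no step. Nrf1 averaged 24.5 ± 5.46 CPM in HSC, 28.3 ± 3.43 CPM in preMegE and 38.0 ± 4.23 CPM in preCFU-E of KO mice, and 19.1 ± 5.75, 29.0 ± 3.09 and 37.3 ± 2.74 CPM in the same populations of WT mice (SD, n = 3). Tfam, which packages and transcribes mitochondrial DNA, averaged 16.1 ± 2.48, 57.4 ± 7.52 and 101 ± 1.06 CPM in KO and 17.7 ± 3.03, 57.8 ± 11.4 and 97.9 ± 11.2 CPM in WT cells. Ppargc1a, a coactivator known to drive mitochondrial biogenesis in other tissues, averaged 6.17 ± 2.45, 0.404 ± 0.245 and 0.222 ± 0.0156 CPM in KO and 8.49 ± 2.35, 0.58 ± 0.357 and 0.232 ± 0.139 CPM in WT cells, and fell in the first step (log2 -3.94 in KO and -3.84 in WT cells). Of 18 listed biogenesis genes, 8 rose and 3 fell in the first step in either genotype. Of all tested genes, 25.4% rose and 27.3% fell there in KO cells, and 25.5% and 28.2% in WT cells. In the second step 10 rose and 0 fell in KO cells, where 18.4% of all genes rose and 17.6% fell. In WT cells 9 rose and 1 fell, where 15.6% of all genes rose and 11.2% fell.

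Levels per length, which allow genes to be compared, gave the share of nuclear protein-coding transcripts that the set makes up. In KO mice the set made up 1.62 ± 0.145% in HSC, then 2.35 ± 0.063% in preMegE, then 4.07 ± 0.185% in preCFU-E, and 1.59 ± 0.05%, 2.47 ± 0.102% and 3.86 ± 0.209% in the same populations of WT mice (SD, n = 3). The 3 populations did not overlap. Atp5b alone made up a large part, with a level of 16728 ± 1173 in KO and 16151 ± 2273 in WT preCFU-E. Annotated noncoding transcripts of the gene entered that level. Over protein-coding transcripts only it was 3870 ± 388 in KO and 3606 ± 514 in WT preCFU-E. Without Atp5b the set made up 2.39 ± 0.078% in KO and 2.24 ± 0.0228% in WT preCFU-E, against 1.19 ± 0.0831% in KO and 1.16 ± 0.0498% in WT HSC.

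By complex, the ratio of the WT preCFU-E to the WT HSC level was 2.76 for complex III and 3.09 for complex V. Without Atp5b that of complex V was 2.28. Complexes II, IV and I had 1.77, 1.69 and 1.62. The whole set had a ratio of 2.51 in KO and 2.42 in WT cells. In TPM as the authors deposited it the WT ratio was 3.69, and over protein-coding transcripts alone 1.85. For the first step, the WT preMegE to WT HSC ratio was 1.16 for complex I and 1.14 for complex II. It was 1.86 for complex III, 1.18 for complex IV and 1.87 for complex V. Over protein-coding transcripts alone these 5 ratios were 1.17, 1.08, 1.68, 0.972 and 1.42 in the same order. Averaged over all 18 libraries, a rank that pools the populations, the most abundant gene per length was Sdha for complex II, Uqcrh for complex III, Cox7c for complex IV and Atp5b for complex V, and the least abundant were Ndufb4 for complex I, Sdhb for II, Uqcrq for III, Cox4i2 for IV and Atp5s for V. Of the highest ranks only that of Atp5b held in every library. Sdhd, with levels per length of 408, 442 and 415 in KO and 382, 394 and 393 in WT preCFU-E, lay above Sdha there (350.4, 383 and 397 in KO and 351, 338 and 352 in WT), and below Sdha in every HSC and preMegE library. Uqcr10 was above Uqcrh in all 3 KO preCFU-E libraries and below it in all others. Among the lowest, Sdhc was below Sdhb in every preCFU-E library and above it in every HSC library, and Ndufb7 was below Ndufb4 in every HSC library and above it in all others.

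**Figure D4:**
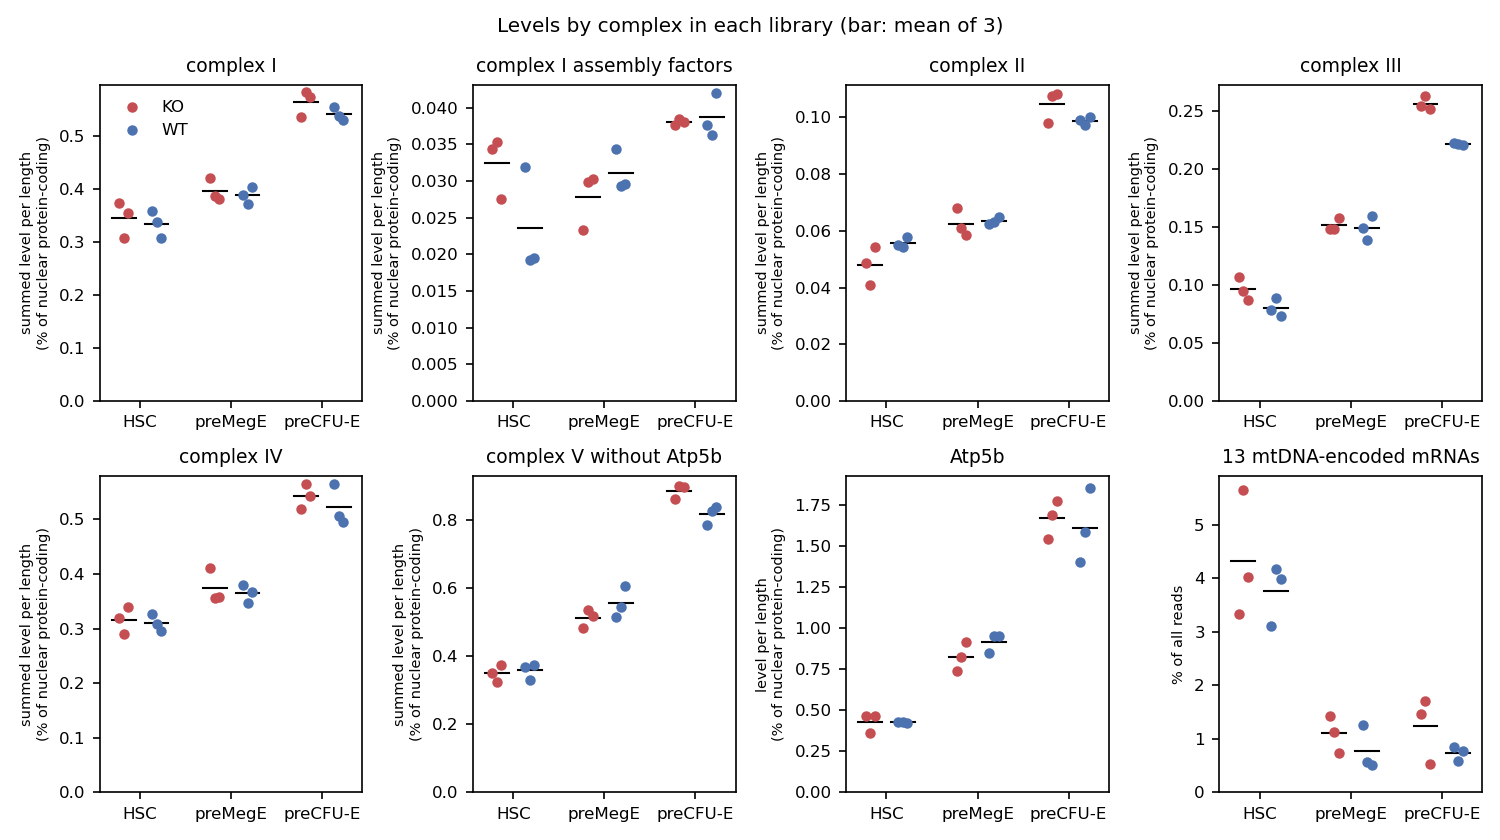
Summed level per length of each complex in each library (points, KO in red and WT in blue, bar at the mean of 3), as a percentage of nuclear protein-coding transcripts, and at the lower right the share of all reads taken by the 13 mRNAs of mitochondrial DNA; each axis starts at 0. The nuclear complexes are highest in preCFU-E, and the mRNAs of mitochondrial DNA are highest in HSC.

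The subunits that mitochondrial DNA encodes did not follow the nuclear genes. Between preMegE and HSC, 10 of 13 fell in KO cells and 12 of 13 in WT cells, where 27.3% and 28.2% of all genes fell. The median log2 change was -2.19 in KO and -2.62 in WT cells, while most nuclear partners rose. mt-Nd4, a proton-pumping subunit of complex I, averaged 3301 ± 1441 CPM in HSC, 641 ± 239.5 CPM in preMegE and 992 ± 605 CPM in preCFU-E of KO mice. WT mice had 2929 ± 577, 446 ± 319.9 and 518 ± 129 CPM (SD, n = 3). mt-Co3, the exception in both genotypes, averaged 613 ± 153, 755 ± 104 and 1056 ± 259 CPM in KO and 667 ± 101, 596 ± 79.4 and 843 ± 141 CPM in WT cells. From preMegE to preCFU-E 3 rose (mt-Atp6, mt-Atp8 and mt-Nd3) in each genotype, where 18.4% of all genes rose in KO and 15.6% in WT cells. As a share of all reads, the 13 mRNAs took 3.32% to 5.65% in KO and 3.12% to 4.17% in WT HSC, 0.745% to 1.43% in KO and 0.507% to 1.26% in WT preMegE, and 0.540% to 1.70% in KO and 0.587% to 0.853% in WT preCFU-E. Mitochondrial ribosomal RNA, which is also made from mitochondrial DNA, took 12.7% to 28.8% of reads in KO and 14.3% to 19.4% in WT preCFU-E, against 24.0% to 33.6% in KO and 25.2% to 30.7% in WT HSC. Whether the preparation of the libraries has a part in this was not tested.

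Among related nuclear genes outside the symbol rule, cytochrome c and the tricarboxylic acid cycle rose almost throughout, and about as many assembly factors rose as did not pass. Cytochrome c (Cycs), which carries electrons after complex III, rose in all 4 contrasts. So did cytochrome c1 (Cyc1), a subunit of complex III that the symbol rule leaves out. Cyc1 averaged 19.99 ± 7.7, 60.1 ± 3.63 and 231 ± 34.0 CPM in KO and 19.3 ± 5.34, 63.8 ± 9.66 and 227 ± 26.8 CPM in WT cells from HSC to preMegE to preCFU-E. All 18 listed genes of the tricarboxylic acid cycle and pyruvate dehydrogenase rose in the first step in both genotypes, with medians of 1.22 in KO and 1.27 in WT cells. In the second step 18 rose in KO and 17 in WT cells, with medians of 1.28 and 1.06. Of 41 tested assembly factors outside the symbol rule, 20 rose and 1 fell in KO and 19 rose and 2 fell in WT cells in the first step, where 25.4% and 25.5% of all genes rose. In the second step 20 in KO and 17 in WT cells rose and 0 fell, where 18.4% and 15.6% of all genes rose.

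Few genes of any kind were called between KO and WT cells, and 1 of the nuclear respiratory genes was among them. With 3 libraries in a group, a lack of calls does not show a lack of change. In KO against WT HSC, 1 of 88 genes rose and 0 fell, where 0.385% of all genes rose and 0.459% fell. In preMegE and in preCFU-E 0 rose and 0 fell. Of all genes, 0.0371% rose and 0.0232% fell in preMegE, and 0.0788% rose and 0.0742% fell in preCFU-E. DESeq2 called 2 higher and 1 lower in HSC and 0 in preMegE and preCFU-E, and limma voom 0 in all 3. Without 1 HSC library edgeR gave 3 calls (without KO 1), 4 (without KO 3), 1 (without KO 2) or 0 (without WT 1, WT 2 or WT 3). At an unadjusted p under 0.05 edgeR had 8 higher and 9 lower in HSC (6.61% and 7.09% of all genes), 1 and 0 in preMegE (2.48% and 2.43%), and 0 and 0 in preCFU-E (1.6% and 2.08%).

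Uqcr10, a small subunit of complex III (ENSMUSG00000059534, chr11:4701973-4704342), was the gene called in HSC. It had 6.75, 10.7 and 8.14 CPM in KO HSC, against 4.8, 4.97 and 4.38 CPM in WT HSC. The groups did not overlap, and the log2 change was 0.85 (SE 0.20, edgeR adjusted p = 0.0411). The call was lost with limma voom (adjusted p = 0.122), with length-scaled counts (0.0696), with the HSC libraries alone (0.797), without WT 1 (0.0872), WT 2 (0.079) or WT 3 (0.0929), and without KO 2 (0.105). Over all alternatives its adjusted p ran from 0.00175 (DESeq2) to 0.797. In preCFU-E it had 47.6, 57.9 and 53.1 CPM in KO and 39.7, 45.1 and 39.5 CPM in WT cells, again without overlap, and a log2 change of 0.35 (SE 0.18) that was not called. In preMegE the KO values of 18.2, 18.5 and 20.4 CPM and the WT values of 17.98, 13.6 and 18.4 CPM overlapped.

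Other HSC differences did not pass the adjustment. Ndufs7, a core subunit of complex I, had 10.7, 21.1 and 7.34 CPM in KO and 7.31, 5.96 and 6.19 CPM in WT HSC. The log2 change was 1.01 (SE 0.28, edgeR adjusted p = 0.0934), with all KO libraries above all WT libraries. Its coding transcript Ndufs7-201 averaged a deposited TPM of 5.86 in KO and 5.87 in WT HSC. The retained-intron transcript Ndufs7-205 averaged 27.6 in KO and 2.33 in WT HSC, and the noncoding Ndufs7-206 17.8 and 9.74. The share of Ndufs7-205 in the gene's TPM ran from 8.03% to 54.2% in KO and from 0% to 23.7% in WT HSC, which overlap. Its change in usage was not called (diffSpliceDGE unadjusted p = 0.083). Sdhc had 22.5, 20.9 and 29.5 CPM in KO and 35.1, 47.2 and 29.9 CPM in WT HSC, a change of -0.62 (SE 0.17, adjusted p = 0.095). DESeq2 called both (adjusted p = 0.0201 for Ndufs7 and 0.0378 for Sdhc), as did edgeR without KO 3 (0.00998 and 0.0249). Over all alternatives the adjusted p ran up to 0.797 for both. Cox6a1, the common form of subunit 6a, had 19.6, 16.6 and 17.2 CPM in KO and 24.3, 28.9 and 23.4 CPM in WT HSC (-0.52, SE 0.15). Cox8a, the common form of subunit 8, had 19.3, 21.4 and 25.9 CPM in KO and 30.9, 31.6 and 30.9 CPM in WT HSC (-0.49, SE 0.17). KO libraries were below all WT libraries for Sdhc, Cox6a1 and Cox8a. Ndufb8 (-0.75, SE 0.24) and Cox6b2 (0.99, SE 0.34) overlapped between genotypes, and each was called without 1 library, Ndufb8 without KO 1 (-1.20, adjusted p = 0.00774) and Cox6b2 without KO 2 (1.29, 0.0477). In all, 4 genes lay above and 5 below without overlap in HSC, against 5.8% and 6.31% of all genes, which is near the same share of the 88.

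In preMegE the genes closest to a call were Cox7a1, Uqcrc1, Cox4i2, Atp5d, Cox7a2l and Ndufaf8, with edgeR adjusted p of 0.988 for Cox7a1 and 1 for the others. Uqcrc1 had 70.3, 62.4 and 72.4 CPM in KO and 67.0, 85.9 and 93.7 CPM in WT preMegE, which overlap. Cox7a2l had 95.6, 106 and 100.2 CPM in KO and 84.0, 92.4 and 89.8 CPM in WT preMegE without overlap, a log2 change of 0.18 (SE 0.14). Without overlap, 4 genes were above and 1 below, against 6.02% and 6.24% of all genes. The median log2 change of the set was -0.03, beside 0.01 over all genes.

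In preCFU-E the set lay slightly higher in KO cells without any gene passing the test. The median log2 change was 0.11, beside -0.00 over all genes, and 69 of 88 changes were above 0, against 47.8% of all genes. All 8 changes of complex III (median 0.20), all 4 of complex II (0.17) and 16 of 17 of complex V (0.12) were above 0. The summed level per length of complex III was 2517 to 2637 in KO and 2209 to 2229 in WT preCFU-E, without overlap. In TPM as the authors deposited it the direction turned, with 918 to 1069.5 in KO and 932 to 1088 in WT preCFU-E, which overlap, and the whole set had a KO to WT ratio of 0.886. Without overlap by gene, 8 were above and 1 below, against 6.62% and 7.41% of all genes. The KO libraries were not alike, with a median log2 difference from the WT mean of -0.02 in KO 1, 0.17 in KO 2 and 0.17 in KO 3, and their share of mitochondrial ribosomal RNA ran from 12.7% to 28.8%. The genes closest to a call after Uqcr10 were Atp5g2 (0.28, SE 0.16), Atp5g3 (0.24, SE 0.15), Cox8a (0.27, SE 0.17), Cox5a (0.26, SE 0.17) and Uqcrc1 (0.23, SE 0.15).

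**Figure D5:**
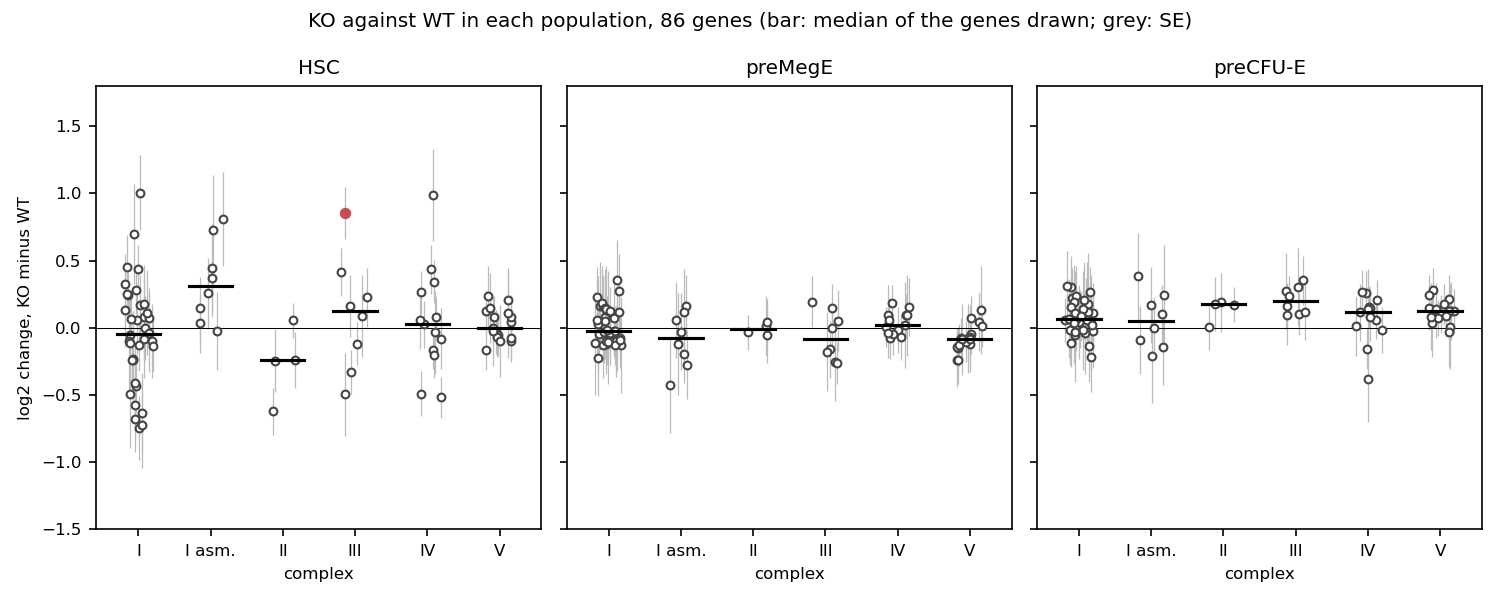
Log2 change of KO minus WT in HSC, preMegE and preCFU-E for 86 genes (points, with the standard error in grey and the median of the genes drawn as a bar), by complex; Cox4i2 and Cox7a1, under 1 CPM in most groups, are left out. The filled point is Uqcr10, the 1 gene with an adjusted p below 0.05; in preCFU-E most points of complexes II, III and V lie just above 0.

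The KO effect itself was not shown to differ between populations for any gene of the set. Between preMegE and HSC 0 of 88 genes were called, where 0.0325% of all genes were, and between preCFU-E and preMegE 0, where 0% of all genes were. DESeq2 and limma voom also called 0 in both. At an unadjusted p under 0.05 edgeR had 5 higher and 4 lower for the first difference (4.14% and 4.01% of all genes) and 1 higher and 0 lower for the second (0.807% and 1.81%), among them Sdhc (0.66, SE 0.25), Uqcr10 (-0.66, SE 0.27) and Uqcrc1 (0.50, SE 0.22).

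Transcript usage, the division of a gene's reads among its annotated transcripts, could be tested for 50 of the genes. No gene of the set was called between KO and WT cells in any population, where 4.36% of 9364 tested genes were called among HSC, 0.139% among preMegE and 0.235% among preCFU-E (edgeR diffSpliceDGE). At an unadjusted p under 0.05 there were 3, 0 and 2 of the 50 genes in the same populations. The share of all genes at that threshold was not computed, so these counts are not read further. Leaving out any 1 library gave 1 to 3 calls in HSC, and leaving out KO 3 gave 1 in preMegE. In the step from HSC to preMegE 5 genes were called in KO (Atp5b, Atp5g2, Cox6b1, Ndufa9 and Ndufs7) and 4 in WT cells (Atp5b, Atp5c1, Atp5g2 and Cox6b1), where 10.2% and 9.91% of all genes were. These counts are near the same share of the 50. Without the HSC library WT 1 the WT count was 7. From preMegE to preCFU-E 0 were called in either genotype, where 0.491% in KO and 0.15% in WT cells were. At an unadjusted p under 0.05 there were 3 and 0, again without a share of all genes.

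Cox6b1-201 held 97.6 ± 0.713% of the gene's TPM in preMegE and 49.7 ± 7.47% in HSC of KO mice, and 97.5 ± 0.495% in preMegE and 49.1 ± 18.3% in HSC of WT mice, while the short coding transcript Cox6b1-204 took most of the rest in HSC. For Atp5b, the noncoding transcript Atp5b-206 held 7.24 ± 3.53% in preMegE and 37.5 ± 4.97% in HSC of KO mice, and 7.11 ± 3.07% in preMegE and 40.9 ± 3.81% in HSC of WT mice. Atp5c1-203 held 94.7 ± 3.02% in preMegE and 78.6 ± 9.07% in HSC of KO mice, and 95.5 ± 0.855% in preMegE and 70.6 ± 12.04% in HSC of WT mice. Ndufa9-201 held 67.6 ± 2.07% in preMegE and 2.06 ± 3.56% in HSC of KO mice, and 71.3 ± 1.06% in preMegE and 21.03 ± 21.1% in HSC of WT mice (SD, n = 3). These 4 transcripts spread more between libraries in HSC than in preMegE, and shares rest on Salmon's division of reads, not on counted junctions. In the first WT step, diffSpliceDGE tests of single transcripts called Cox6b1-204 (adjusted p = 0.00104) and Atp5b-206 (4.2e-05). They did not call Cox6b1-201 (0.937), Atp5c1-203 (0.859) or Ndufa9-201 (0.189).

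For 35 of the 94 genes at least 1 annotated pseudogene transcript matched closely. For 6 of them the copies held more than 5% of the reads of gene and copies together in the median library. These were Atp5g2, Ndufb4 (35.2%), Ndufa12 (28.5%), Atp5g1, Cox6c (9.88%) and Atp5l (5.59%). Adding the reads of the copies to the genes gave 70 risers in the first and 73 in the second step in KO cells, and 67 and 71 in WT cells. Exons of 29 genes overlap a gene on the other strand, Cox4i1, Ndufa11 and Atp5a1 among them, and their values may hold reads of that partner.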

How the data were processed

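Total RNA of 18 sorted cell samples was isolated with an RNeasy micro kit and turned into libraries with the Ovation RNA-Seq System V2 and the Ovation Ultralow System V2, per the labels' protocols; whether strand was kept is not given in the sources used here. The authors quantified transcripts with Salmon 0.12.0 (builds mm10 and GRCm38.p6, per the submitters' processing notes) and deposited an estimated count and a TPM value per transcript. Here 136176 of 136288 transcripts were matched to genes of the GENCODE M21 annotation, and the 112 others held at most 0.084% of reads. Estimated counts were summed per gene and rounded to whole numbers. CPM are counts relative to library size, scaled by TMM factors, and their log2 changes come from edgeR 4.0.16 (R 4.3.3; quasi-likelihood, robust, TMM, filterByExpr), in 1 fit of 6 group means with 12 residual degrees of freedom. P-values were adjusted over all 21565 genes by Benjamini and Hochberg, and a gene was called below 0.05. They measure the spread between libraries of a group, estimated for each gene from all 6 groups together. The level per length is the deposited TPM rescaled to the same total over 21883 nuclear protein-coding genes in every library. Transcripts holding at least 5% of a gene entered the usage test (diffSpliceDGE). Pseudogene copies were found with blastn 2.17.0, at 90% identity over 50% of the length. Scripts were tested on simulated data.

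Alternatives were DESeq2 1.42.0, limma voom (limma 3.58.1), RLE factors, no filter, other scalings, added pseudogene copies, a replicate block and leaving out each library. The genes named are those called between KO and WT or, with fewer than 5 called, the 6 of smallest unadjusted p besides. They also include the 12 called genes of largest change each way per step, the highest and lowest level per length of each complex, listed paralogs, and genes with called transcript usage. 1 gene of the set is counted in the totals but is not reported here. The members and lists were chosen with earlier results of these data known.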

Additional observations from a re-analysis of the deposited data

How the results depend on the processing

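Of the values of single genes recomputed under the alternatives, 1594 kept direction and side of the threshold, 37 lost a call, 6 gained one and 2 reversed, both with length-scaled counts: Sdhc in WT preMegE against WT HSC (-0.14, not called) and Ndufb2 in KO preMegE against KO HSC (0.65, called). The cause was not tested. KO against WT in HSC gave 3 calls with DESeq2 and 0 with voom, length-scaled counts or HSC libraries alone, and 0 to 4 without 1 library. The counts of calls in the steps stayed within 1.5 times under every alternative run, and without 1 library they ran from 66 to 72 and 59 to 70 in KO and from 61 to 66 and 58 to 67 in WT cells. With nuclear protein-coding scaling the median log2 changes were 0.82 and 0.93 in KO and 0.98 and 0.81 in WT cells. Length-scaled counts gave 1.25 in the first KO step, and no filter 0.87 in the second WT step, which without 1 library ran from 0.87 to 1.07. The WT preCFU-E over WT HSC ratio of levels in deposited TPM was 3.69 for all genes, 2.45 for complex I, 2.47 for its assembly factors, 2.69 for II, 4.20 for III, 2.55 for IV and 4.71 for V. Over protein-coding transcripts only, an alternative chosen after seeing the data, it was 1.85 for all genes, 1.69 for II, 2.48 for III, 1.405 for IV and 2.20 for V. Usage calls without 1 library ran from 1 to 3 for KO against WT in HSC, 0 to 1 in preMegE, 0 to 2 and 0 to 1 for the differences of KO effects, 4 to 7 and 0 to 1 in the KO steps, and 3 to 7 in the first WT step. Replicate numbers do not pair the samples by the labels, and deviations of same-numbered KO and WT samples correlated at -0.04 to 0.14, against -0.12 to 0.08 for other pairs. With a replicate block the calls were 1 in KO HSC, 70 and 77 in the KO steps, and 66 and 71 in the WT steps. The spread was widest in HSC (common biological coefficient of variation 0.474) and narrowest in preCFU-E (0.127), while the fit shared its estimate over all groups. Calls in HSC may therefore come too easily, and calls in preCFU-E too seldom.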
